A study of Mus musculus with 6 samples.

Results

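The 10 genes described here encode receptors through which the liver senses drugs, bile acids, sterols and thyroid hormone: Nr1i3 (CAR), Nr1i2 (PXR), Nr1h4 (FXR), Nr0b2 (SHP), Nr5a2 (LRH-1), Nr1h3 (LXR alpha), Nr1h2 (LXR beta), Rxra (RXR alpha), Ahr and Thrb. They were chosen by name, and a probe was taken as theirs where its transcript accession belongs to 1 of the 10 genes. This gave 14 of the 41174 non-control probes, and each gene had a probe among the 21059 genes and unmatched transcripts that were tested. Thrb had 4 probes, Rxra had 2, and the other 8 genes had 1 each. The name nuclear receptor fits all but Ahr, whose product is a ligand-activated factor of the bHLH-PAS family. The samples were 6 independent preparations of total liver RNA from mice aged 5 weeks, 3 labelled control wild type and 3 labelled as a liver-specific small Maf knockout (sMaf CKO), all on a mixed background of 129Sv/J, C57BL/6J, and ICR. Each sample was read on 1 one-colour Agilent array. The deleted small Maf genes, the Cre driver and the sex of the mice are not given in the sources used here. Nor is it stated that each RNA came from a mouse of its own, so p-values measure the spread between these samples. The comparison asks whether the RNA of these receptors and of their target genes differs between sMaf CKO and control liver.

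Most of these receptors are transcription factors that bind a small lipophilic ligand and then change the transcription of enzymes that make, modify or export that ligand or related compounds. CAR, PXR, FXR, the LXRs and thyroid hormone receptor beta bind DNA as heterodimers with RXR, LRH-1 binds as a monomer, and AHR pairs with ARNT. SHP has no DNA-binding domain of its own: FXR induces it, and it represses LRH-1 and other receptors at bile acid synthesis genes. The small Maf proteins are bZIP factors that bind Maf recognition and antioxidant response elements as partners of NRF1, NRF2 and other CNC and Bach factors.

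Levels are log2 processed signals minus the 75th percentile of all probes on the same array, so 0 is the 75th percentile and a difference of -1 is a halving. A level can be compared between arrays for 1 probe but not between probes. Differences are sMaf CKO minus control, called at a Benjamini-Hochberg adjusted p under 0.05 in limma's test over all genes tested. The 75th percentile signal lay between 483.4 and 609.3 on the control arrays and between 484.4 and 960.5 on the sMaf CKO arrays, where the highest was that of sMaf CKO array 1. Arrays 1 and 2 of both genotypes lay on 1 slide and arrays 3 of both on another, so each difference is also given on slide 1 (2 arrays against 2) and on slide 2 (1 array against 1, with no test). Mafg, 1 of the 3 small Maf genes, was at 3.20%, 1.22% and 14.8% of the control mean on sMaf CKO arrays 1, 2 and 3, although it is not known whether its probe lies in a deleted part of the gene. Mafg itself did not pass limma's test (adjusted p = 0.0533), but did with slide as a block (adjusted p = 0.0207). Maff and Mafk, the others, were at 66.3% to 159% and at 104% to 130% of their own control means and did not pass either (adjusted p = 0.911 and 0.759). Over all genes 81 rose (0.385%) and 33 fell (0.157%), against 18 and 4 under quantile normalization, and with slide as a block 1.61% passed (0.622% lower). Leaving out 1 sample at a time gave 3 (without sMaf CKO replicate 1) to 294 calls (without sMaf CKO replicate 3). All 8 hepatocyte markers tested were read well above background on every array. The number of arrays limits the precision of every value.

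Of the 10 receptor genes, 0 passed limma's test, against 0.541% of all genes tested. Nr1i3, Nr5a2 and Nr0b2 had an unadjusted p under 0.05, 3 genes and all lower in sMaf CKO liver; of all genes, 16.8% reached that level and 8.10% did so as lower. The difference was below 0 for 9 of the 10, against 54.7% of all genes, and the median of the 10 differences was -0.39 (-0.46 on slide 1 and -0.35 on slide 2), against -0.05 over all genes. It was -0.21 under quantile normalization, -0.09 with spike-in scaling (all genes 0.25) and -0.24 without sMaf CKO replicate 1. In 2 of them, Nr1i3 and Nr5a2, all sMaf CKO arrays lay below all control arrays, against 11.5% of all genes. Nr1i3 stood apart in size, with a difference of -2.16, while the other 9 lay between -0.71 and 0.01.

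**Figure D1:**
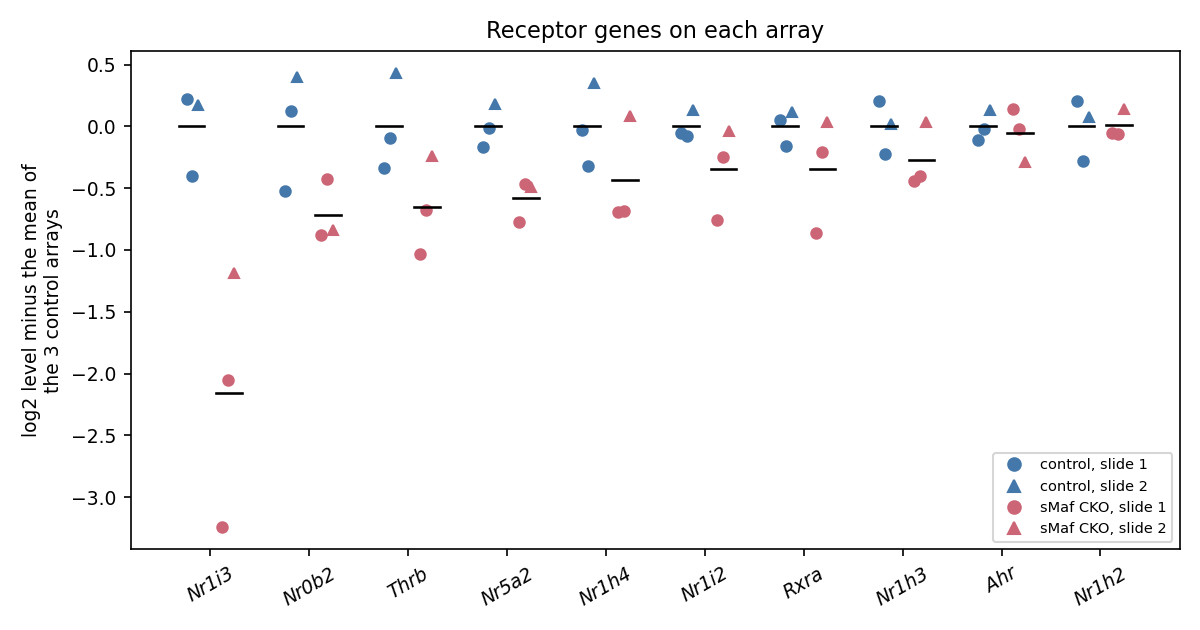
Log2 level of each receptor gene on each of the 6 arrays, minus the mean of the 3 control arrays for that gene; circles are slide 1, triangles slide 2, and bars are group means. Nr1i3 is the gene with the widest gap, its sMaf CKO mean being 2.16 below control, and Nr1h2 and Ahr have group means that nearly coincide.

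**Figure D2:**
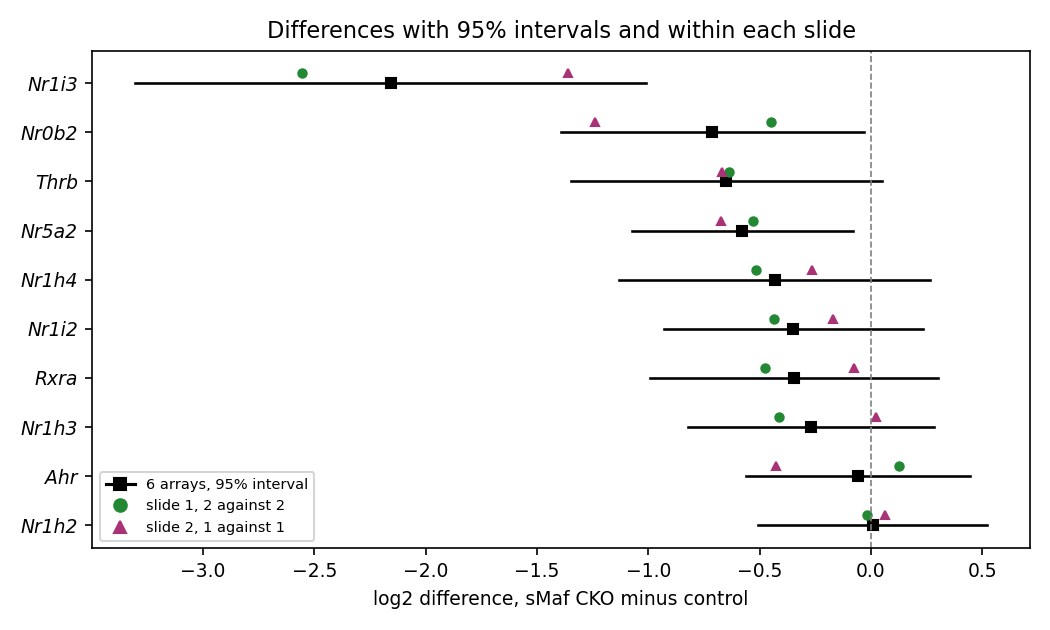
Log2 difference of each receptor gene, sMaf CKO minus control, with the 95% interval from limma over 6 arrays (square and line) and the values on slide 1 (circle) and slide 2 (triangle). The intervals of Nr1i3, Nr0b2 and Nr5a2 lie below 0, and those of the other 7 genes include 0.

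Nr1i3 encodes CAR, the receptor through which phenobarbital-like compounds induce drug-metabolising cytochrome P450 genes in hepatocytes. Control samples 1, 2 and 3 read 3.97, 3.35 and 3.92, and sMaf CKO samples 1, 2 and 3 read 0.50, 1.69 and 2.56; values are given in this order throughout. Every sMaf CKO array was below every control array, and the sMaf CKO arrays were spread over a far wider range than the controls (SD 1.03 against 0.35, n = 3 each). The group means of 3.74 and 1.59 differ by -2.16 (SE 0.49, 95% interval -3.31 to -1.01), which is 4.46-fold lower. As shares of the control mean, sMaf CKO arrays 1, 2 and 3 were at 10.6%, 24.1% and 44.0%. The array with the highest share, array 3, was also the one with the most Mafg signal, but arrays 1 and 2 were not in the same order for the 2 genes. Array 3 was the only sMaf CKO array on slide 2, and 45.6% of all genes tested were highest on it among the sMaf CKO arrays. A relation between the 2 genes was not tested. In limma's test over all genes the difference did not pass (adjusted p = 0.107, 525th smallest p of 21059), and only 0.351% of genes tested had a difference as low or lower. With slide as a block it lay close to the threshold (adjusted p = 0.0562), and it was -2.56 on slide 1 and -1.36 on slide 2. It passed without sMaf CKO replicate 3 (-2.64, adjusted p = 0.0341) and with array weights (-2.12, adjusted p = 0.0210), and in no other alternative tried.

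Nr1i3 had the widest gap between genotypes of the 10, and the knockout label names small Maf genes, whose products bind the Maf recognition element. For these reasons the 250 bases before the start of Nr1i3 are shown. They were searched on both strands for 4 short patterns: TGAGTCA, the core of 1 kind of Maf recognition element, which AP-1 factors bind too; TGACNNNGC, the core of the antioxidant response element; AGGTCA, the nuclear receptor half-site; and TCAAGG, the start of the element that LRH-1 binds, which can overlap an AGGTCA. Capitals mark the matches in this and the later windows. The window is chr1:171213720-171213969 (GRCm38.p6, RefSeq, plus strand), and its single match is a TGAGTCA from 109 to 103 bases before the start, a pattern present in 4.46% of 32851 such windows.
Nr1i3: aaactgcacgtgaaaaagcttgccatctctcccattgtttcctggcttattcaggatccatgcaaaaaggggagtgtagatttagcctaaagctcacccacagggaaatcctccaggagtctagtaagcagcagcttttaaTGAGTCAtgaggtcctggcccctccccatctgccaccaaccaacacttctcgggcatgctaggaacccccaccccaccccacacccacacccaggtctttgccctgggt
Of the 13 windows that RefSeq gave for 9 of the 10 genes, this was the single one with TGAGTCA. A match is a description of the letters and not of binding.

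By the Euclidean distance between array profiles, each centred on its own mean over the 6 arrays, the 5 named genes nearest to Nr1i3 were Mcm10 (0.44), BC024139 (0.50), Ugt2b1 (0.59), Scnn1a (0.60) and Mpv17l (0.62). A distance of 0 would be an identical profile, and these genes were named through the accessions of their probes. The probe sequences were not used here, so whether the Mcm10 probe reads Mcm10, a DNA replication factor, in this liver RNA was not checked. None of the 5 passed limma's test (adjusted p from 0.0567 for BC024139 to 0.113 for Mpv17l, all 5 at an unadjusted p under 0.05), while BC024139, Ugt2b1 and Scnn1a passed with slide as a block, and those 3 and Mcm10 passed without sMaf CKO replicate 3 (-2.82 for Mcm10, -2.51 for BC024139, -2.96 for Ugt2b1 and -3.16 for Scnn1a). Ugt2b1, a UDP-glucuronosyltransferase of liver, read 3.30, 3.14 and 3.68 in control and 0.02, 0.81 and 1.91 in sMaf CKO liver (difference -2.46, SE 0.45; adjusted p = 0.0665, and 0.0234 with slide as a block; -2.81 on slide 1 and -1.77 on slide 2). Scnn1a, a subunit of the epithelial sodium channel, differed by -2.60 (SE 0.54, adjusted p = 0.0854, and 0.0351 with slide as a block). In each of the 5, as in Nr1i3, sMaf CKO array 1 was the lowest and array 3 the highest of the sMaf CKO arrays. The 5 were picked for nearness to the profile of Nr1i3, so this order and the gap between genotypes follow from the choice. Their p-values are no separate result. Of all genes tested, 45.6% were highest on array 3 among the sMaf CKO arrays.

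**Figure D3:**
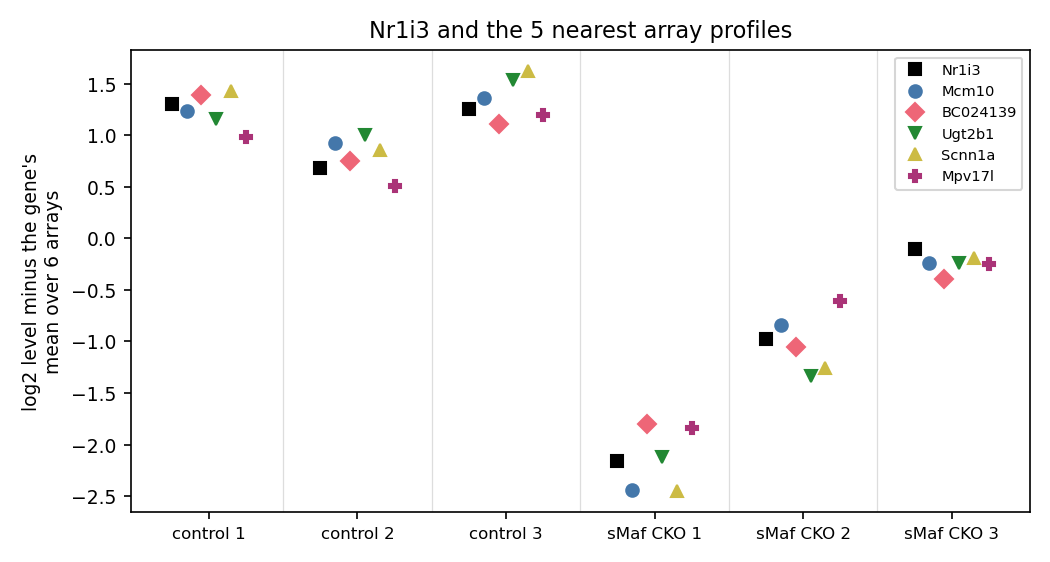
Log2 level of Nr1i3 and the 5 genes with the nearest profile on each array, minus the gene's mean over the 6 arrays; each symbol is 1 gene. All 6 genes sit above their mean on the 3 control arrays and below it on the 3 sMaf CKO arrays, lowest on sMaf CKO array 1. The 5 were chosen for nearness to Nr1i3, so the shared pattern follows from the choice.

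Nr1i2 encodes PXR, which shares many drug metabolism targets with CAR and responds to a wide range of drugs and steroids. It read 3.22, 3.19 and 3.40 in control and 2.51, 3.03 and 3.23 in sMaf CKO liver. Array 1 of the sMaf CKO group was low and array 3 lay inside the control range. The difference of -0.35 (SE 0.25, 95% interval -0.93 to 0.23) did not pass (adjusted p = 0.517), and was -0.44 on slide 1 and -0.17 on slide 2. Of the 24 genes listed as targets of CAR or PXR, 23 were tested, 1 rose and 1 fell over all genes, and 11 had an unadjusted p under 0.05 (2 higher and 9 lower). Their median difference was -0.57 (-0.58 on slide 1 and -0.59 on slide 2), with 18 below 0, and it was -0.36 under quantile normalization and -0.27 with spike-in scaling. With slide as a block 2 rose and 3 fell. Cyp2c55, a P450 induced in liver by CAR and PXR activators, rose 14.9-fold: it read -1.44, -1.92 and -2.17 in control and 2.81, 2.31 and 1.06 in sMaf CKO liver (difference 3.90, SE 0.45, adjusted p = 0.0269; 4.24 on slide 1 and 3.23 on slide 2). It missed the threshold without control replicate 1 or 3 or sMaf CKO replicate 1 or 2 (3.52 to 4.10, adjusted p from 0.0822 to 0.128), under quantile normalization (0.0596), with spike-in scaling (0.0642) and with no filter on dim probes (0.111). Cyp2c54, another P450 of the same family, fell 6.15-fold (difference -2.62, SE 0.41, adjusted p = 0.0486; -2.80 on slide 1 and -2.26 on slide 2), and missed it without any single array other than sMaf CKO array 3 (-2.93 to -2.14, adjusted p from 0.0646 to 0.183), under quantile normalization (0.0679), with spike-in scaling (0.0961), with no filter (0.177), with the mean of probes (0.0508) and on slide 1 alone (0.0562). It read 3.32, 2.95 and 3.09 in control and -0.46, 1.12 and 0.83 in sMaf CKO liver. Whether the probes of these paralogs also read each other's transcripts was not tested.

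The 2 genes most used as readouts of these receptors, chosen here after their values were seen, did not pass. Cyp2b10, the classical CAR target, read 2.20, 0.91 and 1.18 in control and 0.41, 0.93 and 0.52 in sMaf CKO liver. Its groups overlapped, since sMaf CKO array 2 lay just above control array 2, and the difference was -0.81 (SE 0.36, adjusted p = 0.309; -0.89 on slide 1 and -0.66 on slide 2). Without control replicate 1, the highest array, it was -0.43. Cyp3a11, the main PXR-inducible P450, differed by -0.32 (SE 0.27, 95% interval -0.94 to 0.31, adjusted p = 0.587), and this sign turned under quantile normalization (0.09).

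Nr1h4 encodes FXR, the bile acid receptor that holds back bile acid synthesis and raises bile acid export. It read 4.61, 4.32 and 4.99 in control and 3.94, 3.95 and 4.72 in sMaf CKO liver. Arrays 1 and 2 of the sMaf CKO group were below all controls and array 3 was inside their range. The difference was -0.43 (SE 0.30, 95% interval -1.13 to 0.26, adjusted p = 0.504), -0.52 on slide 1 and -0.27 on slide 2. Nr0b2, which encodes SHP, read -1.11, -0.46 and -0.18 in control and -1.46, -1.01 and -1.42 in sMaf CKO liver. The groups overlapped through control array 1, which lay below sMaf CKO array 2. Its difference was -0.71 (SE 0.29, 95% interval -1.39 to -0.03, adjusted p = 0.281), -0.45 on slide 1 and -1.24 on slide 2. Nr5a2 encodes LRH-1, which sustains transcription of bile acid synthesis genes and of Nr0b2. It read 2.42, 2.57 and 2.77 in control and 1.82, 2.12 and 2.10 in sMaf CKO liver, and the groups did not overlap. The difference of -0.58 (SE 0.21, 95% interval -1.08 to -0.08) did not pass (adjusted p = 0.244), and it varied little between slides, at -0.53 on slide 1 and -0.67 on slide 2.

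The windows before the starts of Nr0b2 and Nr5a2 are shown because both genes had an interval below 0 and because LRH-1 is a known activator of Nr0b2. That of Nr0b2 is chr4:133553126-133553375 (GRCm38.p6, plus strand) and holds TCAAGG from 68 to 63 and from 35 to 30 bases before the start, a pattern found in 12.5% of all windows. That of Nr5a2 is chr1:136960449-136960698 (minus strand) and holds 1 AGGTCA from 64 to 59 bases before the start, found in 14.0% of all windows.
Nr0b2: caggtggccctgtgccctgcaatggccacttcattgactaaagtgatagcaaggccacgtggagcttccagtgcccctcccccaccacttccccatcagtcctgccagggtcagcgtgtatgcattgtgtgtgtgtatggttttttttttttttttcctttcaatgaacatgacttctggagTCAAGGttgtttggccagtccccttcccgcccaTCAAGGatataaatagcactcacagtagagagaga
Nr5a2: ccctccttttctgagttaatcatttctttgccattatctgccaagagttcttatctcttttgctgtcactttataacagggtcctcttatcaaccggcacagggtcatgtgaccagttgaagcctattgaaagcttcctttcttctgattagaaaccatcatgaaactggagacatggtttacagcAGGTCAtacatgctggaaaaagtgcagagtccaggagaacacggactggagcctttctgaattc
A second window of Nr5a2 held none of the 4 patterns. Neither TGAGTCA nor TGACNNNGC was in the windows of Nr0b2 and Nr5a2, which says only that these letters are not there.

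Of the 14 genes listed for bile acid synthesis and transport under FXR, SHP and LRH-1, 13 were tested, 1 fell and 0 rose. Their median difference was -0.73 (-0.75 on slide 1 and -0.44 on slide 2), with 10 below 0 and 8 at an unadjusted p under 0.05 (7 lower and 1 higher). The median was -0.44 under quantile normalization, -0.43 with spike-in scaling and -0.46 without sMaf CKO replicate 1. With slide as a block 2 fell and 1 rose. Cyp7b1, the oxysterol hydroxylase of the alternative pathway of bile acid synthesis, fell 13.4-fold. It read 3.66, 3.15 and 4.03 in control and -0.55, 0.33 and -0.20 in sMaf CKO liver (difference -3.75, SE 0.32, adjusted p = 0.0117; -3.51 on slide 1 and -4.22 on slide 2), and it missed the threshold without replicate 1 of either genotype (control -3.73 with adjusted p = 0.0878, sMaf CKO -3.54 with adjusted p = 0.0858) or with no filter on dim probes (adjusted p = 0.0560). The following 4 genes were chosen after their values were seen. Cyp7a1, the rate-limiting enzyme of the classical pathway and a gene that SHP represses, read 4.30, 3.44 and 3.91 in control and 2.94, 3.63 and 3.80 in sMaf CKO liver (difference -0.43, SE 0.32, 95% interval -1.18 to 0.32, adjusted p = 0.538; -0.59 on slide 1 and -0.11 on slide 2). Cyp8b1, the sterol 12-alpha-hydroxylase that LRH-1 activates and SHP represses, read 1.67, 0.33 and 0.76 in control and -1.62, -0.97 and 0.19 in sMaf CKO liver, with no overlap. Its difference of -1.71 (SE 0.52, adjusted p = 0.176) was -2.29 on slide 1 and -0.56 on slide 2. Slc10a1, the NTCP transporter that takes up bile acids, differed by -1.79 (SE 0.29, adjusted p = 0.0523, and 0.0394 with slide as a block; -1.96 on slide 1 and -1.45 on slide 2). Abcb11, the bile salt export pump induced by FXR, differed by 0.10 (SE 0.30, 95% interval -0.60 to 0.80, adjusted p = 0.899; 0.03 on slide 1 and 0.23 on slide 2), and its sign was the opposite with control replicate 2 (-0.11) or sMaf CKO replicate 3 (-0.07) left out.

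The LXRs sense oxysterols and induce genes of sterol efflux and lipogenesis, with Nr1h3 most used in liver and Nr1h2 present in most tissues. Nr1h3 read 3.26, 2.82 and 3.06 in control and 2.61, 2.65 and 3.09 in sMaf CKO liver. The groups overlapped, with sMaf CKO array 3 above control arrays 2 and 3. The difference was -0.27 (SE 0.24, 95% interval -0.82 to 0.28, adjusted p = 0.600), -0.41 on slide 1 and 0.02 on slide 2, and positive with spike-in scaling (0.03). Nr1h2 read 1.82, 1.33 and 1.69 in control and 1.56, 1.55 and 1.75 in sMaf CKO liver, so that both groups covered the same levels. Its difference was 0.01 (SE 0.22, 95% interval -0.51 to 0.52, adjusted p = 0.991; -0.02 on slide 1 and 0.06 on slide 2), a value whose sign turned in 6 of 21 alternatives. Of 14 LXR targets tested, 0 passed and 4 had an unadjusted p under 0.05, all lower. Their median was -0.37 (-0.49 on slide 1 and -0.07 on slide 2), and it was -0.09 under quantile normalization, -0.07 with spike-in scaling and -0.20 without sMaf CKO replicate 1. The 2 with the smallest p were the partners of 1 sterol exporter, Abcg8 (-1.91, SE 0.33, adjusted p = 0.0555, and 0.0470 with slide as a block; -2.07 on slide 1 and -1.60 on slide 2) and Abcg5 (-1.48, SE 0.37, adjusted p = 0.131; -1.58 on slide 1 and -1.28 on slide 2). Abcg8 read 0.46, 0.11 and -0.03 in control and -2.36, -1.20 and -1.63 in sMaf CKO liver. Abca1, the cholesterol exporter that is the usual readout of LXR and was chosen after its values were seen, differed by -0.11 (SE 0.24, 95% interval -0.67 to 0.46, adjusted p = 0.859), and its sign turned under quantile normalization (0.02), with spike-in scaling (0.19) and without control replicate 2 (0.06).

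Rxra encodes the shared partner of these receptors, and its 2 probes gave differences of unequal size. The brighter probe, which stands for the gene in the test, read 5.66, 5.45 and 5.72 in control and 4.75, 5.40 and 5.65 in sMaf CKO liver. Apart from sMaf CKO array 1 the values lay close together, and the difference was -0.34 (SE 0.28, 95% interval -0.99 to 0.30, adjusted p = 0.565; -0.48 on slide 1 and -0.08 on slide 2). Without sMaf CKO replicate 1 it was -0.09. The dimmer probe read 0.49, -0.24 and 0.27 in control and -0.89, -0.61 and -0.31 in sMaf CKO liver, with no overlap, a difference of -0.78 (SE 0.27, adjusted p = 0.232 over all 27859 probes kept; -0.87 on slide 1 and -0.58 on slide 2).

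Thrb encodes thyroid hormone receptor beta, the main form in liver, and 3 of its 4 probes were well above background on at least 3 arrays. The brightest read 0.91, 1.16 and 1.67 in control and 0.21, 0.57 and 1.01 in sMaf CKO liver, overlapping through control array 1 and sMaf CKO array 3 (difference -0.65, SE 0.30, 95% interval -1.35 to 0.05, adjusted p = 0.325; -0.64 on slide 1 and -0.67 on slide 2). The second read -1.76, -1.51 and -1.39 in control and -2.52, -2.30 and -3.002 in sMaf CKO liver, with no overlap (difference -1.05, SE 0.25, adjusted p = 0.123 over all probes kept; -0.78 on slide 1 and -1.61 on slide 2). The third, well above background on 5 arrays, read -3.78, -4.14 and -4.03 in control and -4.98, -4.97 and -4.91 in sMaf CKO liver, the tightest separation of the 3 (difference -0.97, SE 0.21, adjusted p = 0.0943 over all probes kept; -1.01 on slide 1 and -0.88 on slide 2). The fourth was above background on 0 arrays. Of the 13 probes of the 10 genes that were kept, 0 passed over all probes, against 0.424% of all probes kept, and 6 had an unadjusted p under 0.05, against 16.5% of them. The brightest probes of Rxra and Thrb had the smallest difference of those kept for their gene.

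**Figure D4:**
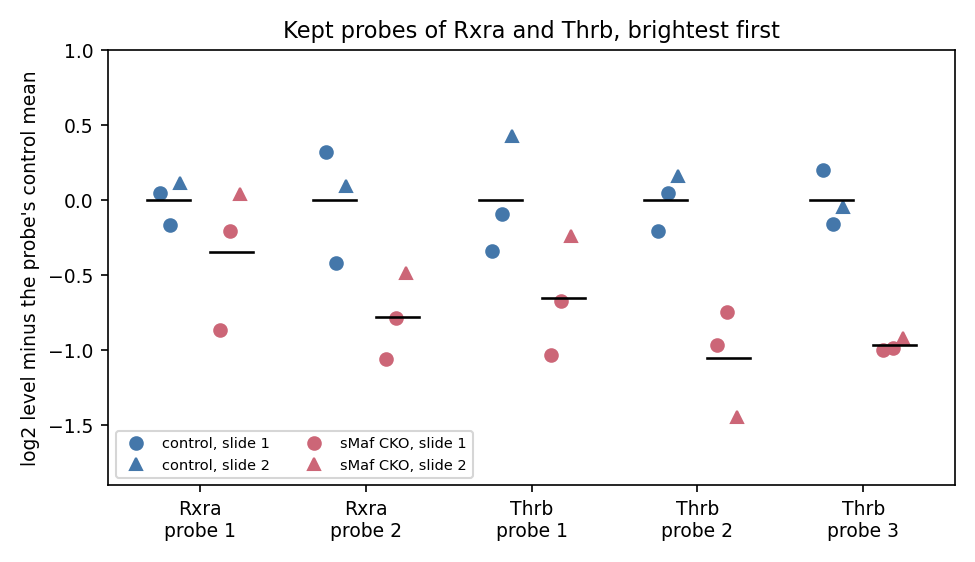
Log2 level of each kept probe of Rxra and Thrb on each array, minus the mean of the 3 control arrays for that probe, with bars at group means. The brightest probe of each gene (probe 1) has overlapping groups, while the other 3 probes have all sMaf CKO arrays below all control arrays, by 0.78 to 1.05 on average. Over all genes tested 11.5% had such a gap, and the share over all probes kept was not counted.

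The first of the 2 Thrb windows is shown because, among the windows of the 10 genes, it was the single one with the antioxidant response element core. It is chr14:17660710-17660959 (GRCm38.p6, plus strand), with TGACGCGGC from 56 to 48 bases before the start, which fits TGACNNNGC, a pattern found in 10.2% of all windows. An AGGTCA from 184 to 179 and a TCAAGG from 181 to 176 bases before the start overlap each other.
Thrb: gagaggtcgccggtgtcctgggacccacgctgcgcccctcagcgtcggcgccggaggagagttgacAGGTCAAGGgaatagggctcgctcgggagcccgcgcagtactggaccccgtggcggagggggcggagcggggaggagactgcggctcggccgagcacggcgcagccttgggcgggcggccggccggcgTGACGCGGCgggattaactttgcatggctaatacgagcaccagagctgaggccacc
The second Thrb window held none of the 4 patterns, and which start the transcripts of these livers used was not measured.

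Of 9 genes listed as induced by thyroid hormone, 8 were tested, 0 passed and 5 had an unadjusted p under 0.05 (3 lower and 2 higher). Their median was -0.43 (-0.38 on slide 1 and -0.47 on slide 2), and it was -0.29 under quantile normalization and -0.13 with spike-in scaling. Hr, 1 of the 2 higher genes and named after its values were seen, was dim. Its probe was well above background on 1 control array and 2 sMaf CKO arrays. Bcl3, the other higher gene and also named after its values were seen, was well above background on every array. It read 2.61, 3.26 and 2.86 in control and 3.72, 4.02 and 4.09 in sMaf CKO liver, with no overlap. Its difference of 1.03 (SE 0.25, adjusted p = 0.120) was 0.93 on slide 1 and 1.24 on slide 2. Me1, the malic enzyme that supplies NADPH for lipogenesis, read 3.41, 2.79 and 2.37 in control and -0.35, 1.10 and 0.55 in sMaf CKO liver (difference -2.43, SE 0.42, adjusted p = 0.0567, and 0.0470 with slide as a block; -2.73 on slide 1 and -1.82 on slide 2). Dio1, the deiodinase that activates thyroid hormone in liver, read 4.81, 4.89 and 4.93 in control and 2.43, 2.79 and 4.09 in sMaf CKO liver. Its controls were nearly equal and its sMaf CKO arrays spread widely below them, a difference of -1.77 (SE 0.41, adjusted p = 0.112; -2.24 on slide 1 and -0.84 on slide 2), which passed without sMaf CKO replicate 3 (-2.26, adjusted p = 0.0116). Thrsp, a lipogenic protein gene chosen after its values were seen, differed by -2.43 (SE 0.79, adjusted p = 0.199; -2.47 on slide 1 and -2.36 on slide 2), and by -1.48 without sMaf CKO replicate 1.

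Ahr encodes the receptor for dioxins and other planar aromatic compounds. Its probe was printed 10 times on each array, and the mean over these spots was 2.52, 2.61 and 2.77 in control and 2.77, 2.61 and 2.34 in sMaf CKO liver. The groups covered nearly the same range, and the difference was -0.06 (SE 0.22, 95% interval -0.56 to 0.45, adjusted p = 0.921), 0.13 on slide 1 and -0.43 on slide 2. Its sign turned in 5 of 21 alternatives, quantile normalization (0.07) and spike-in scaling (0.24) among them. Of 9 listed AHR targets 7 were tested, 0 passed, and 2 had an unadjusted p under 0.05, 1 in each direction. The median was 0.52 (0.41 on slide 1 and 0.28 on slide 2), and it was 0.27 with normexp and 0.82 with spike-in scaling. The 2 with the smallest p were Nqo1, a quinone reductase that NRF2 with a small Maf partner also induces (-1.66, SE 0.40, adjusted p = 0.120; -1.82 on slide 1 and -1.34 on slide 2), and Lrat, an enzyme of retinol storage that is also in the list of stellate cell markers (0.79, SE 0.26, adjusted p = 0.202; 0.60 on slide 1 and 1.17 on slide 2). Cyp1a2, an abundant AHR target of hepatocytes chosen after its values were seen, differed by 0.06 (SE 0.29, 95% interval -0.62 to 0.73, adjusted p = 0.941), with a sign that turned under normexp (-0.01) and without control replicate 2 (-0.18) or sMaf CKO replicate 2 (-0.07). Ahrr, whose 0.52 is the median of the list, and Cyp1b1 were dim, with control means of -4.75 and -4.76. Each was well above background on 2 control arrays, and both were named after their values were seen.

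**Figure D5:**
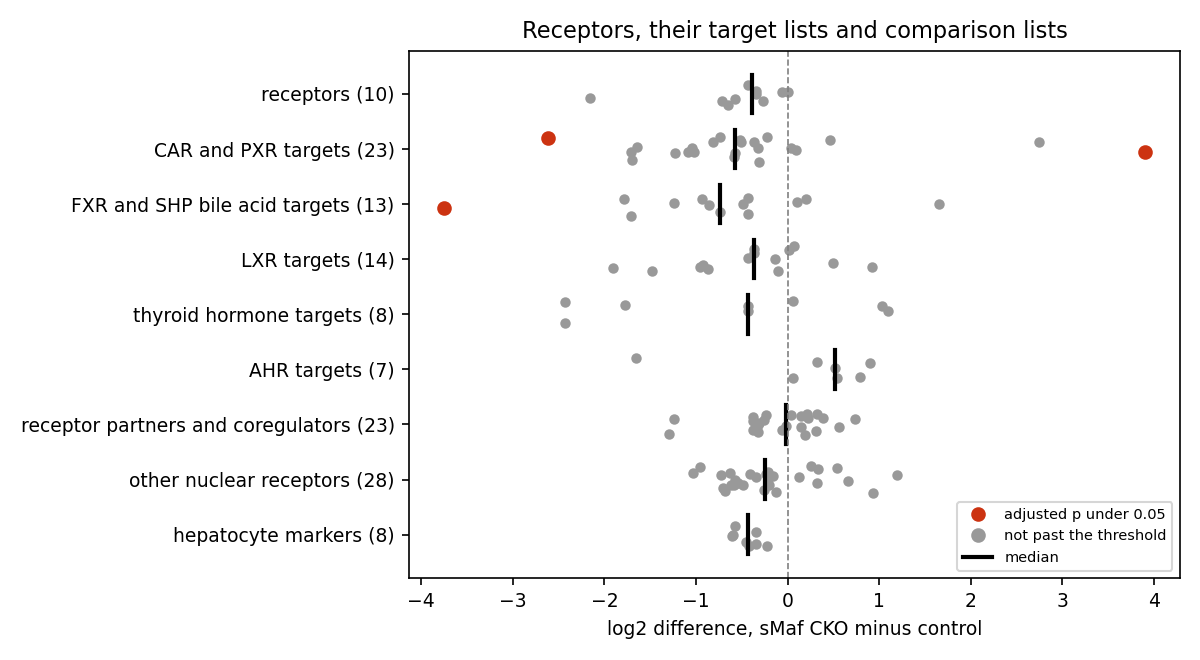
Log2 difference, sMaf CKO minus control, of every tested gene of the receptors, their target lists and 3 comparison lists; each point is 1 gene, bars are medians and red points passed limma's test. The medians of the receptors (-0.39) and of the CAR and PXR targets (-0.57) lie below 0, that of the AHR targets (0.52) above, and 3 genes passed.

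Outside these members, 28 of 37 other nuclear receptor genes were tested and 0 passed, with 5 at an unadjusted p under 0.05 (4 lower and 1 higher). Their median was -0.25 (-0.36 on slide 1 and -0.10 on slide 2), with 20 below 0, and it was -0.13 with normexp and 0.05 with spike-in scaling. The 2 with the smallest p were Nr4a1, an immediate early receptor gene (1.20, SE 0.26, adjusted p = 0.0978; 0.89 on slide 1 and 1.82 on slide 2), and Ppara, the fatty acid receptor (-1.03, SE 0.25, adjusted p = 0.116; -1.03 in each slide). Among 23 partners, chaperones and coregulators 0 passed and 2 had an unadjusted p under 0.05. Their median was -0.02, and it was 0.07 under quantile normalization and 0.28 with spike-in scaling. The 2 were Ppargc1b (-1.24, SE 0.34, adjusted p = 0.156; -1.13 on slide 1 and -1.47 on slide 2) and Ppargc1a (-1.30, SE 0.42, adjusted p = 0.195; -0.87 on slide 1 and -2.16 on slide 2), 2 coactivators of the fasting response. No test compared the 10 receptors with either list.

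Markers of other cell types were read on the same arrays, and of these Gpnmb and Trem2 alone passed limma's test. Beside the counts below, 16.8% of all genes tested had an unadjusted p under 0.05. In bulk liver, fewer cells of a type and less RNA per cell cannot be told apart. Of the 10 hepatocyte markers 8 were tested, 0 passed (1 at an unadjusted p under 0.05), all 8 were below 0, and their median was -0.43 (-0.59 on slide 1 and -0.05 on slide 2), beside -0.39 for the receptors. These medians were -0.10 and -0.21 under quantile normalization and -0.13 and -0.09 with spike-in scaling. Their summed linear level, relative to the 75th percentile, ranged from 2579 to 3107 in control and from 1749 to 2847 in sMaf CKO liver. Of the 8 Kupffer cell markers, all above 0 with a median of 0.71, 0 passed (4 at an unadjusted p under 0.05), and their summed level ranged from 80.5 to 132.3 and from 186.7 to 416.6. With slide as a block 1 of them passed, Marco, a scavenger receptor of Kupffer cells (difference 3.73, SE 0.77, adjusted p = 0.0859 without the block and 0.0107 with it; 3.55 on slide 1 and 4.08 on slide 2). Of 7 tested markers of monocyte-derived macrophages 2 rose, Gpnmb and Trem2 (median 0.99, summed level 30.4 to 47.7 and 27.9 to 42.1). At an unadjusted p under 0.05, 5 of the 7 were higher and 1 was lower (-0.85), with all its sMaf CKO arrays below all control arrays. No marker passed among the 7 of ductular cells (median 0.63, 2 at an unadjusted p under 0.05, summed level 10.4 to 12.3 and 12.4 to 51.5), the 6 of stellate cells (median 0.63, 3, 70.9 to 91.1 and 106.8 to 128.3), the 6 of endothelial cells (median -0.17, 0, 46.7 to 67.6 and 40.9 to 54.6) and the 6 of erythroid cells (median 0.42, 0, 227.6 to 504.8 and 308.1 to 597.2). On sMaf CKO array 1, 8 of the 10 receptors and 7 of the 8 hepatocyte markers had their lowest level of the 6 arrays, against 29.0% of all genes tested. Gpnmb, Trem2 and Marco were named after their values were seen. The part of cell composition in the receptor values was not tested.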

How the data were processed

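Liver RNA (3 control and 3 sMaf CKO samples, 500 ng each) was labelled with Cy3 and read on 1 array per sample, per the labels' protocols. The deposited intensities came from Agilent Feature Extraction 10.7.3.1 and were background-subtracted and spatially detrended, per the file headers. The deposited value table holds log2 values that equal the scaled scanner values centred on each probe's median (r = 1.00 on each array over 27618 probes), so its scale, centring and direction are settled; its column medians are 0.05, -0.02, 0.08, -0.10, -0.11 and 0.09 for control 1 to 3 and sMaf CKO 1 to 3. Spot flags are other per-spot columns of 0 or 1, per the file headers.

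Spots flagged as outliers were left out, log2 processed intensities were averaged per probe, and the array's 75th percentile was subtracted. A probe was kept where at least 3 of the 6 arrays read it well above background (27859 of 41174 probes). Probes were named through RefSeq accessions (26690 matched), and the brightest probe stood for a gene (21059 tested, 14213 with a symbol). The test was lmFit and eBayes of limma 3.58.1 (R 4.3.3) with genotype alone in the model; the script was tested on simulated data. The series' design text calls the RNA samples independent. Replicate numbers come from the titles.

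The members and lists were chosen with earlier results of these data known. The text names every member, up to 4 called genes per list or else the 2 with the smallest p, and the 5 profiles nearest to the member with the smallest p; other genes are said to be chosen after their values were seen. Alternatives were normexp (offset 50, on median signals), quantile, median and spike-in scaling, the value table, other filters, the mean of probes, blocks, array weights, trend and robust variances, a stricter threshold and each array left out. Testing each probe on its own was added after seeing the data. Array headers name build mm9, while promoter windows are GRCm38.p6.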

Additional observations from a re-analysis of the deposited data

How the results depend on the processing

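The count of called receptor genes was 0 in every alternative but 2, array weights (1, Nr1i3) and leaving out single arrays (0 to 1, Nr1i3 without sMaf CKO replicate 3), and Nr1i3 stayed between -2.64 and -1.36. Over all genes, the 114 calls became 74 with normexp, 22 with quantile, 252 with median and 12 with spike-in scaling, 1 with no filter and 267 with probes above background on all arrays, 340 with slide as a block, 196 on slide 1, 1141 with array weights, 308 with trend and robust variances, 3 at an adjusted p under 0.01, and 6, 175 and 22 without control replicates 1, 2 and 3 and 3, 11 and 294 without sMaf CKO replicates 1, 2 and 3 (3 to 294); the cause was not tested, beyond the number of genes or arrays entered. Of the target, partner and comparison lists, 3 genes were called, against 1 with quantile and 1 with spike-in scaling, 8 with median scaling, 0 with no filter, 10 with slide as a block and 0 to 6 with single arrays left out (0 without control or sMaf CKO replicate 1). Deviations from the group means correlated at 0.06, 0.17 and 0.42 between same-numbered arrays 1, 2 and 3, and both arrays 3 lay on slide 2. Not every array correlated best with its own number, since control 2 and sMaf CKO 1 correlated at 0.29. Whether same-numbered samples were paired is therefore not settled. With the replicate block 291 genes were called, 0 of them receptors.

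Signs turned for Nr1h3 with spike-in scaling (0.032) and on slide 2 (0.022); for Nr1h2 with normexp (-0.034), median scaling (-0.015), on slide 1 (-0.019), array weights (-0.040) and with single arrays left out (-0.13 to 0.11); for Ahr with quantile (0.069) and spike-in scaling (0.24), on slide 1 (0.13) and with single arrays left out (-0.16 to 0.060); for Cyp3a11 (0.090) and Abca1 (0.019) with quantile and for Abca1 with spike-in scaling (0.19); for Cyp1a2 with normexp (-0.0052); and with single arrays left out for Abcb11 (-0.11 to 0.35), Cyp1a2 (-0.18 to 0.29) and Abca1 (-0.29 to 0.064). Spike-in scaling adds 0.30 to every difference and moves the median of all genes from -0.05 to 0.25.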

Other observations

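Before any scaling, the processed signal of Nr1i3 was 9084, 6192 and 7320 on control arrays and 1363, 2161 and 2858 on sMaf CKO arrays. For the other 9 receptors the unscaled signal on sMaf CKO array 1, the array with the highest 75th percentile, was at or above the lowest control. Nr1i2 is an example, reading 5411, 5563 and 5110 in control and 5469, 5443 and 4549 in sMaf CKO liver. How many of all genes had such a signal on sMaf CKO array 1 was not counted, so whether this is particular to the receptors is not known. The median unscaled difference was -0.10 for the receptors and 0.23 over all genes tested. With spike-in scaling 7 of the 10 receptors were below 0, against 28.4% of all genes tested, and their median was -0.09 against 0.25 over all genes. What sets the higher signal of that array was not tested.

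Among CAR and PXR targets Cyp2c55 rose (3.90) while Cyp2c54 fell (-2.62), with Nr1i3 at -2.16 on the same arrays. Among genes that FXR induces, Slc51b, a basolateral bile acid exporter, differed by 1.65 (adjusted p = 0.141, and 0.0383 with slide as a block) and Abcb11 by 0.10. Nr0b2, which FXR also induces, differed by -0.71 (adjusted p = 0.281, and 0.226 with slide as a block). Akr1b7, an aldo-keto reductase induced by PXR, CAR and FXR activators, differed by 2.75 (adjusted p = 0.0523, and 0.0236 with slide as a block). Other listed CAR and PXR targets were lower. Ugt1a1 differed by -1.70 (adjusted p = 0.107, and 0.0366 with slide as a block). Abcc3 differed by -1.64 (adjusted p = 0.0533, and 0.0445 with slide as a block). Slc51b, Akr1b7, Ugt1a1 and Abcc3 were named after their values were seen.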
